A study of Drosophila melanogaster with 2 samples.

Results

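Peaks of GFP-tagged CG4707 whose summit sits on the transcription start site (TSS) of a promoter were examined in Drosophila melanogaster embryos. They were chosen by position alone, as peaks with the summit at most 50 bp from the nearest annotated transcript start, and numbered 295 of 3470 peaks (8.5%). Before the last step of the choice there were 425 such peaks, and 130 were left out because their summit lay between 2 protein-coding start sites of different genes that point away from each other and are at most 1000 bp apart. Chromatin immunoprecipitation with sequencing was carried out on whole embryos of mixed sex, 0 to 14 h old, of 1 transgenic line whose CG4707 protein bears GFP at the C-terminal end. The series has 1 group of 2 biological replicates, numbered 2 and 3, and no second condition, tissue or stage, so binding in a given cell type was not measured. One free-text label names both libraries as input control although the assay and antibody labels describe an immunoprecipitation of CG4707, and they were taken as the latter. The values are the region lists of the authors on dm6, with a peak signal in the unit of their caller, so that signals and ranks are compared only within a list and depth is unknown.

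A core promoter is the stretch of DNA around the TSS where the general transcription machinery assembles. In flies, several short elements mark different promoter types. The Initiator and TATA box are typical of regulated genes, the DNA replication-related element (DRE) and Motif 1 are typical of housekeeping genes and are bound by Dref and M1BP, and a run of pyrimidines at the start site itself, the TCT or polypyrimidine initiator, is the hallmark of ribosomal protein and other translation genes. A second sequence matters here as well, the element ACAGTG, which is frequent under CG4707 peaks in general.

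Sequences are shown for the members that carry each of these elements, from 60 or 100 bases before the annotated start to the first 30 transcribed bases, 5′ to 3′ on the gene's strand, with dm6 coordinates and bases from the RefSeq Release 6 genome. The strongest ribosomal protein peaks with a polypyrimidine initiator show the TSS itself, and capitals mark TCTTTT, or its variants with C as the first base, the last base or both, whose second base lies within 5 bp of the annotated start.
RpS4, chr3L:13041741-13041830, plus strand: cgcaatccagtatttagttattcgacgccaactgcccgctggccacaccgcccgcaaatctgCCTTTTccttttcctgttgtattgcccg
RpL30, chr2L:19009208-19009297, minus strand: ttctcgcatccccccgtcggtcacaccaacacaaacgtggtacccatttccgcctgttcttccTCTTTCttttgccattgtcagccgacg
RpL8, chr3L:2587396-2587485, plus strand: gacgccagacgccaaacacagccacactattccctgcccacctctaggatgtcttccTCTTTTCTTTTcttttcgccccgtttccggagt
RpL24, chr2L:13395063-13395152, minus strand: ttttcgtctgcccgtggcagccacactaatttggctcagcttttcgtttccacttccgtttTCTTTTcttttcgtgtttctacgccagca
RpS7, chr3R:30208913-30209002, minus strand: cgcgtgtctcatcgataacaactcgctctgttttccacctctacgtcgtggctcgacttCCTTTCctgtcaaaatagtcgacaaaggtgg
Members with a DRE show where it stands ahead of the start, and capitals mark TATCGATA.
RpS12, chr3L:13023292-13023381, plus strand: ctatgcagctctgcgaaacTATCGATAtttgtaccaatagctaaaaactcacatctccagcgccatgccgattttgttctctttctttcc
RpL27, chr3R:25685022-25685111, minus strand: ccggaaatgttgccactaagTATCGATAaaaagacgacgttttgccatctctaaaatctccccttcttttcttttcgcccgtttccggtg
eEF1gamma, chr3R:29220112-29220201, plus strand: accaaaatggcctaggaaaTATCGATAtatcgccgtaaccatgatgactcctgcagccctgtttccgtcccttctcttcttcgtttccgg
Members with Motif 1 differ in its distance from the start, and capitals mark GGTCACACT.
RpL27A, chr2L:4458315-4458404, minus strand: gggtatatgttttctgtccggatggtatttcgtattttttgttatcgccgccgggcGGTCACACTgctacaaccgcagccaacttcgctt
CG17660, chr2L:1710392-1710481, minus strand: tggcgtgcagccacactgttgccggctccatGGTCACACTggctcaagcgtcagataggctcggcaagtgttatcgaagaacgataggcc
Of the few members with a longer form of the ACAGTG element, 3 are shown for contrast, and capitals mark ACAGTGGG or CACTGTGC on either strand.
RecQ4, chr3L:8175949-8176078, minus strand: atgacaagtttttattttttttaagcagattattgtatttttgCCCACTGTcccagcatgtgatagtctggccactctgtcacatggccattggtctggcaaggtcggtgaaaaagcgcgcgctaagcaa
ari-1, chrX:18137656-18137785, minus strand: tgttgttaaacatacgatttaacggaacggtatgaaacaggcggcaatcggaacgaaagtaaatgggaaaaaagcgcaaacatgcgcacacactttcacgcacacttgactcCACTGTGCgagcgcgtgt
Polr2F, chr3R:5371695-5371824, plus strand: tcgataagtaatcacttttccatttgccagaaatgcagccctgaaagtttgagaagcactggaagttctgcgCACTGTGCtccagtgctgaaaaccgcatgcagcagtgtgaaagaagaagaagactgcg
In the counts that follow, a window of 100 bp to each side of the summit was searched on either strand. Only the class of the start site, by polypyrimidine initiator or Initiator, was read on the gene's strand alone.

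Summits lay on both sides of the start. Of the 295 summits, 117 lay upstream, 3 on the annotated base and 175 downstream, with a median of 8 bp and quartiles of -13 and 28 bp. The downstream excess came with the rule for leaving out peaks. The nearest start of 55 members (18.6%) itself belongs to a divergent pair, so the label of a single promoter does not hold for them, and all 55 lie downstream of their start, since a summit on the other side would lie between the pair and be left out. Among the other 240, 117 lay upstream and 120 downstream, with a median of 0.5 bp. Just inside the 50 bp limit were eEF1alpha1 (-50 bp, signal 251), cer (-49 bp, signal 172), Eip75B (50 bp, signal 304) and zf30C (50 bp, signal 164). Just outside were Cmpk (-51 bp, signal 313), Shawn (-51 bp, signal 219), CG6664 (51 bp, signal 351) and Fim (52 bp, signal 141).

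**Figure D1:**
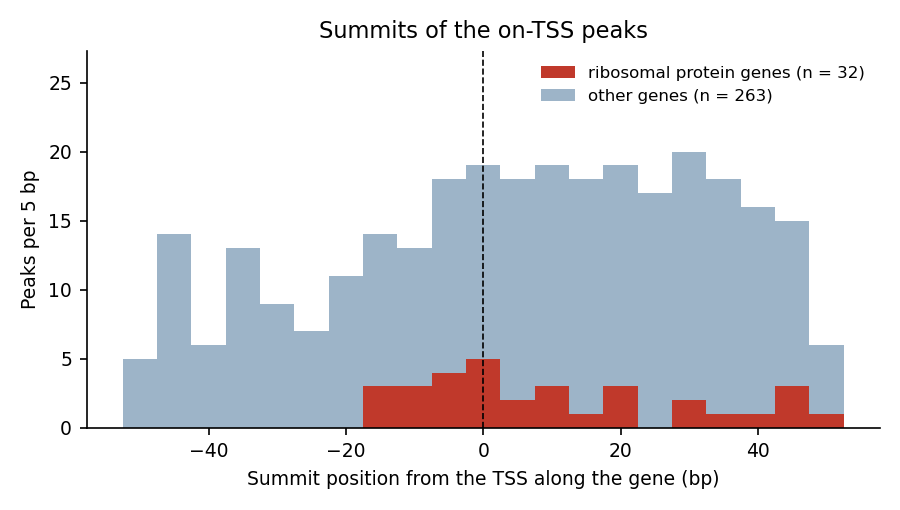
Position of the summit from the TSS (bp along the gene, negative is upstream) for the 295 on-TSS peaks, as stacked counts per 5 bp. The 32 peaks at ribosomal protein genes lie between -13 and 48 bp.

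Most members had a summit of each replicate near the same start. The nearest of all 30000 regions of a replicate was taken at any rank, so a match can be a weak region under the peak threshold. Among the 3470 highest regions of both replicates were 182 of the 295 members (61.7%). A summit of replicate 2 lay within 50 bp of the same start for 248 members, and one of replicate 3 for 264. Both did so for 223 (75.6%), and neither for 6. Where each replicate had a summit within 100 bp of the pooled one, as for 286 members, the summits of the replicates lay a median of 17 bp apart, with an upper quartile of 33 bp. The pooled summit is made from the reads of both replicates, so these counts describe precision and are not an independent test of position.

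Most on-TSS peaks belonged to protein-coding genes. These were the nearest gene for 264 members (89.5%), non-coding RNA genes for 20 and annotated transposable elements for 7. A pseudogene, a snoRNA, an snRNA and a tRNA gene had 1 each. The protein-coding share was close to the 88.1% of 1734 regions under the peak threshold chosen by the same position rule. Over all peaks it was 79.7%. The 295 summits belonged to 292 genes, because atos, pyd and chic each had a pair of members at different starts. The start was the only annotated one of its gene for 139 members and the most upstream one for 210. The summit lay in an exon of the gene for 188 members and in its coding sequence for 1. These counts of starts and exons stand without a share over other peaks, so they describe the members only. At 10 members the start is shared by a pair of genes.

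On-TSS peaks were weak within the peak list. The median signal was 156 (quartiles 134 and 215), against 207 for the 670 peaks 51 to 500 bp upstream of a single promoter, 170 for the 260 peaks as far downstream, 192 for the 369 peaks between divergent starts, and 182 for all peaks. The highest 25% of all 3470 peaks by signal held 38 of the members (12.9%, exact 95% interval 9.28 to 17.2), 234 of the upstream peaks (34.9%), 57 of the downstream peaks (21.9%) and 110 of the divergent ones (29.8%). The members were thus in the top 25% less often than upstream peaks (odds ratio 0.275 with adjusted p = 8.25e-13 in a two-sided Fisher's exact test), downstream peaks (odds ratio 0.527, adjusted p = 0.00651) and divergent peaks (odds ratio 0.348 with adjusted p = 1.88e-07 in a Fisher's exact test, Benjamini-Hochberg over 3 classes). Each replicate showed the same direction on its own ranks. In replicate 2, 14.9% of members and 31.8% of the 930 upstream and downstream peaks were among its 868 highest regions, the same number as make up the top 25% of the peak list (odds ratio 0.375 with p = 4.59e-09 in a Fisher's exact test), and in replicate 3 the shares were 13.2% and 29.1% (odds ratio 0.37 with p = 1.51e-08 in a Fisher's exact test). Fisher's exact test takes peaks as independent, though they come from the same 2 libraries, so these p-values describe the lists and not new embryos.

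**Figure D2:**
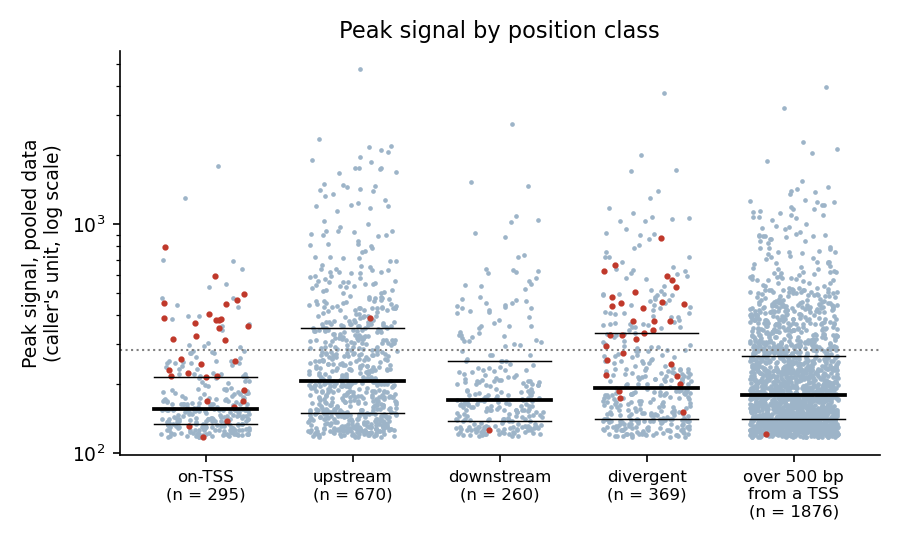
Pooled peak signal (caller's unit, log scale) of every peak by its position relative to the nearest TSS. Thick bars are medians, thin bars quartiles, red points are peaks whose nearest gene encodes a cytosolic ribosomal protein, and the dotted line is the lower limit of the highest 25% (signal 283). On-TSS peaks have the lowest median of the 5 classes, 156, and their ribosomal protein peaks a median of 314.

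Members were also found less often among the 3470 highest regions of both replicates, with 182 of 295 (61.7%) against 656 of 930 other single-promoter peaks (70.5%, odds ratio 0.673 with p = 0.00505 in a Fisher's exact test). This difference moved with signal. In the upper 50% of the peaks by signal 94 of 98 members and 492 of 516 others were in both (95.9% and 95.3%, odds ratio 1.15 with p = 1 in a Fisher's exact test). In the lower 50% the counts were 88 of 197 (44.7%) and 164 of 414 (39.6%, odds ratio 1.23 with p = 0.253 in a Fisher's exact test), so the direction turned in both.

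**Figure D3:**
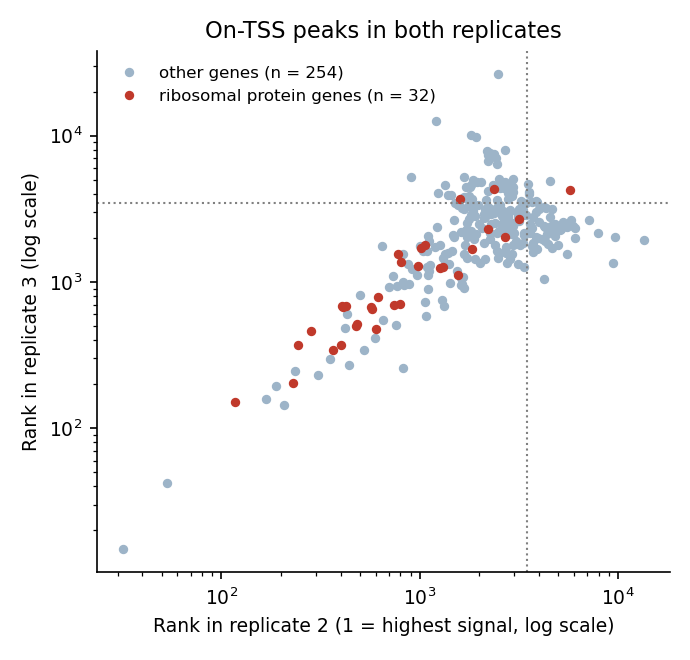
Rank of the on-TSS peaks in replicate 2 and replicate 3 (1 is the highest signal, log scales) for the 286 members matched within 100 bp in both replicate lists. Dotted lines mark rank 3470. Ribosomal protein peaks, in red, have a median rank of 762 in replicate 2 and 750 in replicate 3, against 2212 and 2218 over all members.

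The strongest member was at RecQ4, which encodes a DNA helicase of the RecQ family. Its peak on chromosome 3L from 8175805 to 8176216 had a signal of 1796 (rank 19 of all peaks, 32 in replicate 2 and 15 in replicate 3), with the summit 43 bp upstream of the start. The peak at lncRNA:CR31840, a non-coding RNA gene, followed with a signal of 1293 (2L from 14023919 to 14024311, summit at 17 bp, rank 53 in replicate 2 and 42 in replicate 3). Only these 2 stood among the 100 highest peaks. RpS4, a small subunit ribosomal protein, came next with 794, then yps, a Y-box RNA-binding protein, with 694 (3L from 12125048 to 12125319, summit at -27 bp), CG5335 with 689 (2R from 18621390 to 18621682, summit at -3 bp) and ari-1, a RING-type ubiquitin ligase, with 640 (X from 18137532 to 18137821, summit at 9 bp). The ranks of these members in the replicates were close to each other, at 117 and 150 for RpS4, 206 and 144 for yps, 167 and 159 for CG5335 and 188 and 193 for ari-1.

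Of the 20 strongest members, 7 were at ribosomal protein genes. Besides RecQ4, lncRNA:CR31840, yps, CG5335 and ari-1, the others were eEF1gamma, a subunit of translation elongation factor 1 (signal 532), Uhg4, a host gene of snoRNAs (546), CG31855 (475), Pgant1, which starts mucin-type glycosylation (474), Dph4, a factor of diphthamide synthesis on elongation factor 2 (443), an annotated transposable element of the INE-1 family (433), CG9399 (399) and Adk3, an adenylate kinase (396). Dph4 was less even between replicates, with rank 820 in replicate 2 and 258 in replicate 3. The Uhg genes, a group looked up after Uhg4 was seen, had 3 of 7 annotated genes among the members. Over all annotated genes the share was 1.22%. The Uhg group was picked from these data, so its count is a description only.

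Among the gene lists looked up, cytosolic ribosomal protein genes made up the one large group. The other 263 members were not at these genes, and most kinds of gene had no list. Their start carried an on-TSS peak at 32 of 93 genes (34.4%, exact 95% interval 24.9 to 45), where the shares over all genes were 1.22% of 23973 annotated genes and 1.87% of 13945 protein-coding genes. The list was chosen with results of these data known, so the counts are given without a test. Large subunit genes contributed 19 of 54 (35.2%) and small subunit genes 13 of 39 (33.3%). Of the other 61 ribosomal protein genes, 32 had their nearest peak within 500 bp between divergent starts, 1 upstream, 1 downstream and 1 at another gene's on-TSS peak, and 26 had no peak within 500 bp. Their peaks at divergent starts had a median signal of 377 over 31 peaks and a median summit position of -14 bp, against 314 and 5.5 bp for the members.

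The ribosomal protein members were the strongest sizeable group among the lists looked up. Their median signal was 314, against 153 for the other 263 members, and 17 of 32 (53.1%) were in the highest 25% of all peaks, against 21 of 263 (7.98%). In the large subunit, the highest were RpL30 (signal 596, rank 231 in replicate 2 and 205 in replicate 3), RpL8 (498, ranks 244 and 369), RpL24 (466, ranks 364 and 345) and RpL27A (454, ranks 403 and 373). In the small subunit, they were RpS4 (794), RpS10b (448, ranks 282 and 465), RpS7 (384, ranks 427 and 687) and RpS3A (351, ranks 566 and 678), the last of them on chromosome 4. The lowest were RpL29 (132) and RpS14b (118). RpS14a and RpS14b are tandem copies that encode the same protein, so reads may not be assigned to the right copy, and their values (160 and 118) are uncertain. Of the ribosomal protein members, 29 of 32 (90.6%) were among the top 3470 regions of both replicates, against 153 of 263 others (58.2%).

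The summits of ribosomal protein members spanned -13 to 48 bp, with a median of 5.5 bp, against a median of 8 bp for the other members. Distance from the start chose the members, so these positions are a description. Of the 32, 12 had a start in a divergent pair, where the rule keeps summits on the downstream side only.

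Translation factors were the next group among these lists, with 5 of 54 genes (9.26%, interval 3.08 to 20.3). The elongation factor genes eEF1gamma (signal 532, summit at -1 bp), eEF2 (294, -2 bp) and eEF1alpha1 (251, -50 bp) led it, and the initiation factor genes eIF4A (123, -39 bp) and eIF2A (120, -35 bp) were near the lower end of the peak list. Of the 17 lists, 8 had no member. With 3 genes as the limit that a count of 0 allows, each of these limits but 1 is above the 1.87% of all protein-coding genes, so the zeros do not set these lists apart. They include mitochondrial ribosomal proteins (0 of 73, which allows a share of up to 4.11%), oxidative phosphorylation (0 of 84, up to 3.57%), the proteasome (0 of 48, up to 6.25%) and aminoacyl-tRNA synthetases (0 of 33, up to 9.09%). For mitochondrial ribosomal proteins, 9 genes had their nearest peak between divergent starts instead. Spliceosome (up to 8.82%), ribosome biogenesis (up to 14.3%), Rab (up to 8.33%) and microRNA genes (up to 1.15%, beside 1.22% of all annotated genes) also had 0. The remaining lists had 1 or 2, namely Polr2F among RNA polymerase subunits (signal 167), BEAF-32 among insulator proteins (151), DnaJ-1 among chaperones (199), the cyclin CycG and the cyclin-dependent kinase inhibitor dap among cell cycle genes (174 and 147), snoRNA:Psi18S-176 among 257 snoRNA genes (165) and tRNA:Ile-TAT-1-1 among 295 tRNA genes (118). The CG4707 gene itself had no on-TSS peak, and the nearest summit, in a divergent pair with CG42360, was 149 bp from its start (signal 454).

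At the start site itself, the polypyrimidine initiator stood out among ribosomal protein members. It was found within 5 bp of the start at 22 of 295 members (7.46%), 21 of 369 peaks between divergent starts (5.69%), 20 of 1734 sub-threshold regions chosen by the same position rule (1.15%), and 1.41% of all protein-coding starts. Of the 22, 15 were ribosomal protein genes, 46.9% of their 32 peaks, and 7 were among the other 263 (2.66%). Ribosomal protein starts without an on-TSS peak were not compared, so whether this share is particular to the members was not tested. Within 100 bp of the summit, 31 of 32 ribosomal protein members held one of these words on either strand, against 39.9% of the others and 43.9% of windows of the same length at all protein-coding starts. An Initiator (TCAGTT, or its variants with T for the G, C for the last T or both, with the A within 5 bp of the start) was found at 46 members (15.6%) and at 0 of the 32 ribosomal protein members (up to 9.38%), against 17.9% of the sub-threshold regions and 11.3% of all protein-coding starts.

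Signal differed between these promoter types. Of 22 members with a polypyrimidine initiator, 10 (45.5%) were in the highest 25% of all peaks, against 28 of 273 other members (10.3%, odds ratio 7.29 with adjusted p = 1.66e-04 in a two-sided Fisher's exact test, Benjamini-Hochberg over 2 comparisons). Of 46 members with an Initiator, 0 were, against 28 of 227 with neither (12.3%, where 0 of 46 allows up to 6.52%, adjusted p = 0.00653 in Fisher's exact test). The median signals were 268, 139 and 155. The first of these differences rested on ribosomal protein genes, since without them it was no longer past the threshold (odds ratio 1.97 with p = 0.445 in a Fisher's exact test, with 7 such members). The second was not repeated without them. Of the ribosomal protein members, 17 were in the group with neither and 0 in the Initiator group.

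The element ACAGTG was much rarer under on-TSS peaks than under peaks further upstream. CACTGTGC was within 100 bp of the summit in 8 of 295 members (2.71%) and 96 of 670 upstream peaks (14.3%, odds ratio 0.167 with adjusted p = 5.58e-08 in a two-sided Fisher's exact test). ACAGTGGG was found in 8 members (2.71%) and 86 upstream peaks (12.8%, odds ratio 0.189, adjusted p = 7.69e-07, Fisher's exact test), and ACAGTG alone in 15.6% and 30.1% (odds ratio 0.428 with adjusted p = 4.51e-06 in a Fisher's exact test). CACTGTGC and ACAGTGGG both hold ACAGTG on one strand and can overlap, so these are not separate results, and these 8-mers were picked in earlier work on these same peaks. The lower share held in each of 4 equal classes of signal rank. From the highest class down, CACTGTGC occurred in 2.63%, 5.00%, 3.06% and 1.01% of members and in 21.8%, 10.7%, 13.6% and 6.30% of upstream peaks. The 260 peaks downstream of a start held CACTGTGC in 8.85%, ACAGTGGG in 6.92% and ACAGTG in 26.2%, without a test. Peaks between divergent starts held CACTGTGC in 3.79%, ACAGTGGG in 5.42% and ACAGTG in 23.8%. A low share of the 8-mers is thus not particular to on-TSS peaks.

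Only 14 members (4.75%) held either 8-mer. The strongest were RecQ4 (ACAGTGGG, signal 1796), ari-1 (CACTGTGC, 640), Pgant1 (ACAGTGGG, 474), FER, a tyrosine kinase (CACTGTGC, 247), Cbs, the cystathionine beta-synthase (CACTGTGC, 243) and CG30089 (ACAGTGGG, 217). None was at a ribosomal protein gene. The sites in RecQ4, ari-1 and Polr2F can be read in the sequences above, on either side of the start. The median distance of CACTGTGC from the summit was 35.5 bp over 8 sites, and 7 of the 8 had this orientation on the gene's strand. ACAGTGGG was on the gene's strand at 2 of its 8 sites, so in both words ACAGTG lay mostly on the other strand. These counts are small, and 2 members hold both words. Over all 51 sites of ACAGTG in members, which include these, 22 had ACAGTG on the gene's strand, which is near even.

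Against weaker regions at the same place, 1 of 13 motifs differed. That motif, ACAGTGGG, was picked in earlier work on these same peaks, as was CACTGTGC, and both hold ACAGTG on one strand. The p-values of these words against regions under the peak threshold thus describe the lists and are no independent test. Sub-threshold regions on a TSS held CACTGTGC in 1.15% of 1734 cases (odds ratio 2.39 with adjusted p = 0.113 in a Fisher's exact test) and ACAGTGGG in 0.461% (odds ratio 6.01 with adjusted p = 0.0105 in a Fisher's exact test), and 0.992% and 0.691% of all 19252 protein-coding start windows of this length held them. Only ACAGTGGG passed the threshold, and its call was lost in 4 alternatives by Fisher's exact test. The odds ratio was 1.82 within 25 bp of a start (adjusted p = 0.798), 4.16 with protein-coding starts only (adjusted p = 0.0971, exact test), 3.96 within 50 bp of the summit (adjusted p = 0.194, exact test) and 6.24 against the regions next in rank (adjusted p = 0.113, exact test). CACTGTGC gained a call with a 100 bp limit (odds ratio 5.60, adjusted p = 1.18e-09, exact test), with divergent summits kept (3.05, adjusted p = 0.0183) and from replicate 2 alone (4.18, adjusted p = 0.00568, exact test), and its odds ratio was 1.54 from replicate 3 alone. ACAGTG, in 10.8% of the sub-threshold regions (odds ratio 1.52, adjusted p = 0.0996, exact test), gained one from replicate 3 alone (1.77, adjusted p = 0.0176) and from replicate 2 alone (2.05, adjusted p = 1.73e-04, exact test). It also did so with a 100 bp limit (2.18), with divergent summits kept (1.79) and without ribosomal protein genes (1.64), and was at 0.972 within 25 bp of a start.

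The DRE, Motif 7 and Motif 1 were more frequent in members than in upstream peaks. The DRE was found in 22 members (7.46%) and 11 upstream peaks (1.64%, odds ratio 4.83 with adjusted p = 5.03e-05 in a Fisher's exact test), Motif 7 in 8.14% and 2.69% (odds ratio 3.21, adjusted p = 5.71e-04) and Motif 1 in 5.08% and 1.64% (odds ratio 3.21 with adjusted p = 0.00771 in a Fisher's exact test). The TATA box, TATAAA, was less frequent, in 19.7% against 35.8% (odds ratio 0.438 with adjusted p = 1.57e-06 in a Fisher's exact test). Windows of upstream peaks are centred further from the start by the rule itself, so this comparison also reads position. Peaks between divergent starts held the DRE in 8.94%, Motif 7 in 11.9%, Motif 1 in 3.52% and the TATA box in 39.8%. The 260 peaks downstream of a start held the DRE in 1.15%, Motif 7 in 3.46%, Motif 1 in 3.08% and the TATA box in 20%, without a test. The shares of the DRE and Motif 7 and the low share of the TATA box are thus not particular to on-TSS peaks. Against regions at the same position, none of these 4 differed past the threshold. Sub-threshold regions on a TSS had the DRE in 8.07%, Motif 7 in 7.09%, Motif 1 in 6.17% and the TATA box in 20.7% (adjusted p = 0.816 for each in Fisher's exact test), and all protein-coding start windows in 6.45%, 6.80%, 4.42% and 26.9%. The median GC content within 100 bp of the summit was 45.8% in members, 36.8% in upstream peaks and 44.8% in sub-threshold regions on a TSS, and its part in the motif differences was not tested. In the lower 50% of the peaks by signal the DRE (odds ratio 2.42, adjusted p = 0.282) and Motif 7 (odds ratio 3.07, adjusted p = 0.0659) lost their call against upstream peaks by Fisher's exact test. By the same exact test, Motif 1 lost it in the upper 50% (odds ratio 2.65, adjusted p = 0.237), and Motif 7 with a 25 bp limit (odds ratio 2.25, adjusted p = 0.0545). The odds ratio of Motif 1 was 5.06 from replicate 2 alone and 4.58 from replicate 3 alone, and that of the DRE was 2.86 without ribosomal protein genes.

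**Figure D4:**
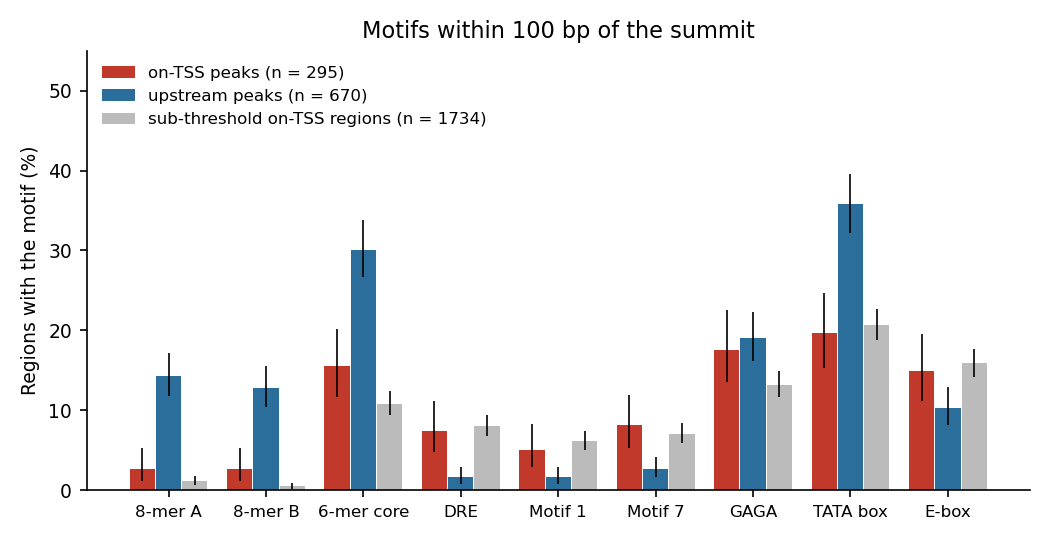
Share of regions (%) with each motif within 100 bp of the summit, for on-TSS peaks, peaks 51 to 500 bp upstream of a single promoter, and sub-threshold regions on a TSS. Bars start at 0, and error bars are exact 95% intervals. 8-mer A is CACTGTGC, 8-mer B is ACAGTGGG and the core is ACAGTG. On-TSS peaks stand near the sub-threshold regions for the DRE, Motif 1, Motif 7 and the TATA box.

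Within the members, the DRE went with ribosomal protein genes. It was present in 10 of their 32 peaks (31.2%) and in 12 of the other 263 (4.56%), and stood upstream of the start at 21 of 22 sites, at a median of 43 bp. In RpS12, RpL27 and eEF1gamma, shown above, it lies shortly ahead of the start. For the DRE too, ribosomal protein starts without an on-TSS peak were not compared. Motif 1 was at 15 members and on the gene's strand at 15 of 16 sites. GAGAGA, the site of GAGA factor, was in 17.6% of members, 19.1% of upstream peaks and 13.2% of sub-threshold regions on a TSS (adjusted p = 0.708 and 0.113 in Fisher's exact test), and in 1 of 32 ribosomal protein members. CAGCTG, the E-box, was in 14.9% of members, 10.3% of upstream peaks and 15.9% of sub-threshold regions (adjusted p = 0.0812 and 0.816, exact test). Against upstream peaks its odds ratio of 1.53 became a call from replicate 3 alone (1.85, adjusted p = 0.00797, exact test), with a 100 bp limit (1.60, adjusted p = 0.031), with divergent summits kept (1.46, adjusted p = 0.047) and without ribosomal protein genes (1.70, adjusted p = 0.0294, exact test). CAGGTA, the Zelda site, was in 1.69%, 3.73% and 4.84% (adjusted p = 0.141 and 0.084 in Fisher's exact test). Motif 6 was in 2 members, 0 upstream peaks and 1.15% of sub-threshold regions. Anywhere in the window, the Initiator words were in 44.1% of members, 40.4% of upstream peaks and 50.4% of sub-threshold regions (adjusted p = 0.379 and 0.113 in Fisher's exact test). The polypyrimidine words were in 46.1%, 45.4% and 41.1% (adjusted p = 0.834 and 0.206, exact test). Within 50 bp of the summit, the polypyrimidine words passed against upstream peaks (odds ratio 1.49, adjusted p = 0.0153, exact test) and sub-threshold regions (odds ratio 1.53, adjusted p = 0.0329, exact test), and the Initiator words against upstream peaks (odds ratio 1.74, adjusted p = 0.00113, exact test). The polypyrimidine words also passed against sub-threshold regions in the upper 50% by signal (1.99, adjusted p = 0.0137, exact test) and with divergent summits kept (1.32, adjusted p = 0.0278, exact test). Of windows at all protein-coding starts, 9.74% held GAGAGA, 13.4% the E-box, 4.26% the Zelda site, 1.43% Motif 6, 50.4% the Initiator words and 9.72% ACAGTG. Of all members, 226 (76.6%) held neither an ACAGTG 8-mer nor a DRE, Motif 1 or Motif 7, and their median signal was 154.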

How the data were processed

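The authors called 30000 regions in each replicate and in the pooled reads, against a control alignment on dm6, and kept 3470 reproducible peaks, per the deposited file listing. These 3470 were checked to be the pooled regions with the highest signal. The aligner, and likewise the caller, is not given in the sources used here. The signal deposited for each region was treated as a score, in the unit of the caller. The deposited −log10 of the q-value was not used. Summits are the region start plus the deposited summit distance. Read depth is unknown, and intervals, exact Clopper-Pearson at 95%, cover counting error only. For a count of 0, the limit given is 3 counts of the total.

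Summits were placed on transcript starts of Ensembl release 115. The genome was RefSeq Release 6, in which 99.9% of 16213 annotated start codons read ATG. Pooled regions under the peak threshold were used where they overlap no peak by 1 bp or more (26075, of which 1734 met the position rule). Peaks 51 to 500 bp from a start, outside divergent pairs, were the comparison. A peak matched a replicate where its summit lay within 100 bp. Counts of peaks were compared by two-sided Fisher's exact tests with a threshold of 0.05, and p-values of 13 motifs were adjusted by Benjamini-Hochberg. Gene lists are symbol patterns. Named genes are the 20 strongest members, up to 4 per list, up to 6 with an 8-mer, the 2 peaks to each side of the 50 bp limit, and CG4707. Others, such as the lowest ribosomal protein peaks and the genes with several members, were chosen after their values were seen. The members, lists and motifs were chosen with earlier results of these data known. Alternatives changed the distance limit, the starts, the divergent rule, the signal range, the sequence window and the replicates. Scripts were tested on simulated data. Software was Python (3.11.15) with the packages scipy (1.17.1), numpy (2.4.6), pandas (2.3.3) and matplotlib (3.10.9).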

Additional observations from a re-analysis of the deposited data

How the results depend on the processing

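The lower share of on-TSS peaks in the highest 25% by signal kept its direction and call in every alternative run. Odds ratios ran from 0.191 without ribosomal protein genes to 0.559 with a 25 bp limit, and leaving out each replicate gave 0.376 to 0.382. The 25 bp limit left 161 peaks at 160 genes, the 100 bp limit 484 peaks at 480 genes, and the higher-signal 50% 98 peaks at 98 genes. The difference in recovery by both replicates turned to an odds ratio of 1.15 in the higher-signal 50% and 1.23 in the lower-signal 50%. The polypyrimidine initiator lost its call without ribosomal protein genes (odds ratio 1.97).

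Against sub-threshold regions on a TSS, 1 motif passed by Fisher's exact test, ACAGTGGG, a word picked in earlier work on these same peaks. The count was 0 with a 25 bp limit (2 at an unadjusted p under 0.05), 0 with protein-coding starts (3 unadjusted) and 0 against the regions next in rank (3 unadjusted). It was 1 in a 50 bp sequence window (3 unadjusted), there the polypyrimidine words and not ACAGTGGG. It was 3 with a 100 bp limit, 4 with divergent summits kept, 2 in the higher-signal 50%, 3 without ribosomal protein genes, and 2 to 4 when either replicate was left out. Of the single motifs in both comparisons, 19 values gained a call over the alternatives and 8 lost one. Beside those given above, the Zelda site gained one from replicate 2 alone (odds ratio 0.281) and GAGAGA without ribosomal protein genes (1.57), both against sub-threshold regions. Keeping divergent summits raised the ribosomal protein genes from 32 to 61. Leaving out members at divergent promoters or ribosomal protein genes, the lower-signal 50% and the next-ranked regions were chosen after seeing the data. Motif 6 has no odds ratio against upstream peaks, which hold 0, so its alternatives there are not given. For these differences the cause was not tested. No paired analysis was possible because there is 1 group.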
